A study of Mus musculus with 2 samples.

Results

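The vomeronasal receptor genes are the genes named Vmn1r or Vmn2r in the GENCODE M21 annotation of the mouse genome GRCm38. They were chosen by name, as autosomal genes that held at least 30 CG calls in each of 2 WGBS libraries when 2 kb on either side of the gene was included. Of 561 autosomal genes with such a name, 553 met this minimum (318 of 326 Vmn1r genes and 235 of 235 Vmn2r genes), among 51149 of 51229 autosomal genes that did so. Another 4 genes with these names lie on chromosomes X and Y and were left out by the rule. The libraries came from primary osteoblasts of the calvaria of 3-day-old C57BL/6 mice, cultured for 3 days. The WT library is labelled wild type, and the labels do not say whether the controls carried floxed alleles. The TCKO library came from Prx1-Cre mice with floxed Tet1, Tet2 and Tet3 (each fl/fl), in which Cre expressed in the mesenchyme of the limbs and parts of the skull deletes the 3 Tet genes, so that cells of another origin in the culture would keep them. There was 1 library per genotype, so no difference between WT and TCKO cells has a replicate check, and every test below compares the 2 libraries. The study asked how the loss of TET enzymes, which oxidize methylated cytosine and so start its removal, changes DNA methylation in osteoblasts. The files hold no expression values, so the osteoblast label was not checked against marker genes.

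Vomeronasal receptors are the pheromone receptors of the vomeronasal organ, a chemosensory tissue of the nasal septum. The Vmn1r genes encode receptors with a short extracellular end, usually from a single coding exon, and are used by neurons of the apical layer that signal through the G protein subunit encoded by Gnai2. The Vmn2r genes encode receptors with a long extracellular domain built from several exons, and are used by neurons of the basal layer that signal through the product of Gnao1. A vomeronasal neuron expresses few receptor genes, and osteoblasts are not known to use them. Both families lie in large tandem arrays with many pseudogenes, so that reads from near-identical copies can be lost when only uniquely mapped reads are kept.

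The WT library held 261062118 calls on the nuclear chromosomes (5.97 per reference CG cytosine) and the TCKO library 223581206 (5.11), a ratio of 0.856. They covered 83.7% and 81.9% of CG cytosines. The targeted genes each had a run of 500 bp windows in which TCKO calls were no more than 25% of those in WT; in the run richest in WT calls Tet1 had 755 calls in WT and 70 in TCKO, Tet2 122 and 13, and Tet3 133 and 9. Over all nuclear chromosomes the CG methylation level, the methylated calls over all calls, was 70.2% in WT and 76.3% in TCKO. All intervals below are 95% Wilson intervals, which treat calls as independent and cover counting error only. Several calls can come from 1 molecule, so these intervals can be too narrow. Fisher's exact test treats calls in the same way, so its p-values can be too small and its counts of called genes and bins too large.

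The vomeronasal receptor genes are poor in CpG, which the sequence at their starts shows. The first pair below is the stretch from 250 bases before to 50 bases after the RefSeq start (GRCm38.p6) of the Vmn1r and the Vmn2r gene with the most calls in WT. The second pair gives the same stretch of Vmn2r1, which encodes a receptor that basal neurons express together with others, and of Vmn2r26, a receptor gene of that layer whose targeted alleles have been used to trace its neurons; both were picked for their difference, after its value was seen. All are written 5′ to 3′ on the strand of the gene, and the capitals mark each CG.
Vmn1r68: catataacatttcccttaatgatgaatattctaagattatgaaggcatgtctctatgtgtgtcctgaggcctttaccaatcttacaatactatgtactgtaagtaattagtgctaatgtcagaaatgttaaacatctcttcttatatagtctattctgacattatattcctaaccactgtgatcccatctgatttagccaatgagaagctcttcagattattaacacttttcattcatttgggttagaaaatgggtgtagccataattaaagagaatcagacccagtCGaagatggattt
Vmn2r7: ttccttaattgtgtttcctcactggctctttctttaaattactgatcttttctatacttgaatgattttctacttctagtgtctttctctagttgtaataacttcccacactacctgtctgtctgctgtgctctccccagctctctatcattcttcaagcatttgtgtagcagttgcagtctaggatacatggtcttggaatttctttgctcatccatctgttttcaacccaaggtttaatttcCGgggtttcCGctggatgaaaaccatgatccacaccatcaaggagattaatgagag
Vmn2r1: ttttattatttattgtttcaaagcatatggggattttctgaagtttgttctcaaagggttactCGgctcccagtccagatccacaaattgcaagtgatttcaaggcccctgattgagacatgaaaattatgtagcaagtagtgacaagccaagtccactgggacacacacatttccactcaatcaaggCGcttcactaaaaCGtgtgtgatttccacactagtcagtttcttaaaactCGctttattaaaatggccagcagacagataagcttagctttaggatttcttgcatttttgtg
Vmn2r26: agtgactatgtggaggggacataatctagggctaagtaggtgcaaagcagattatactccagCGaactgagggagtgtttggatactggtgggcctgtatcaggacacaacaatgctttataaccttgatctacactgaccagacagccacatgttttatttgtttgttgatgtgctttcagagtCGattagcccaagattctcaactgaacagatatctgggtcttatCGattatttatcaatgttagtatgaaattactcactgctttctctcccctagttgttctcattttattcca

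Their positions are chr7:10528120-10528419 (minus strand) for Vmn1r68, chr3:64719553-64719852 (minus strand) for Vmn2r7, chr3:64081392-64081691 (plus strand) for Vmn2r1 and chr6:124024508-124024807 (plus strand) for Vmn2r26. The stretch of Vmn1r68 holds 1 CG, with 10 of 16 calls methylated in WT and 7 of 16 in TCKO. That of Vmn2r7 holds 2, with 7 of 13 calls methylated in WT and 6 of 7 in TCKO. It lies inside the GENCODE gene of that name (chr3:64685044-64844765, minus strand), over which the calls of Vmn2r7 were counted, and not at its start. In Vmn2r1 the 4 CGs had 21 of 43 calls methylated in WT (48.8%) and 45 of 55 in TCKO (81.8%), each of the 4 being higher in TCKO. In Vmn2r26 the 3 CGs had 32 of 58 calls methylated in WT (55.2%) and 12 of 37 in TCKO (32.4%), each of the 3 being lower in TCKO. These are too few calls per gene to rank starts, so starts were pooled below.

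The RefSeq table held such a start for 178 of the 318 Vmn1r genes and 114 of the 235 Vmn2r genes. The median count of CG was 1 in each family, against 7 over the 25748 autosomal genes of the table, and 1 for Olfr genes, which encode the odorant receptors of the main olfactory epithelium. No CG at all was present in 44 of the Vmn1r starts (24.7%) and 33 of the Vmn2r starts (28.9%), against 5.58% of all. Starts with the letters CG at most 3 times made up 95.5% and 93.9% of the families and 31.3% of all starts; CG reads the same on both strands. Vmn2r29 had the most, 23. Over the whole windows the observed count of CG was 0.121 of that expected from the C and G content for Vmn1r and 0.139 for Vmn2r, against 0.194 over the autosomes. The median density was 4.21 CG per kb in Vmn1r windows and 3.97 in Vmn2r windows, beside 12.3 in the windows of other protein-coding genes.

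The vomeronasal receptor genes were partly methylated in WT osteoblasts and did not share in the higher level that TCKO cells had over most of the genome. With each cytosine counted once, the Vmn1r windows had a level of 60.3% (interval 60.1 to 60.5%) in WT and 58.9% (58.7 to 59.1%) in TCKO, a difference of -1.35 percentage points. The Vmn2r windows had 59.4% (59.3 to 59.5%) in WT and 57.5% (57.4 to 57.7%) in TCKO, a difference of -1.86 points. Over all autosomal genes the level was 70.9% in WT and 77.7% in TCKO, a difference of 6.79 points in the other direction. The Olfr genes lay between, with 63.6% and 63.3%. Both receptor families therefore had lower levels than other genes in both libraries, and the gap was wider in TCKO.

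Gene by gene, a Vmn1r window had a median level of 59.7% in WT and 57.6% in TCKO, and the median of the differences was -0.662 points; 141 of the 318 had the higher level in TCKO. A Vmn2r window had medians of 57.4% and 55.9%, a median difference of -1.89 points, and the higher level in TCKO for 62 of 235. Over all 51149 genes the median difference was 5.57 points, and 83.9% had the higher level in TCKO. With Fisher's exact test on the calls of each window, adjusted over all 51149 genes, 17 Vmn1r genes were called higher in TCKO and 24 lower, and 9 Vmn2r genes were called higher and 56 lower, where 57.7% of all autosomal genes were called higher and 2.30% lower. As shares, 5.35% of Vmn1r genes and 3.83% of Vmn2r genes were called higher, both far under the share among all genes, and 7.55% and 23.8% were called lower, both above it. Of the 1398 Olfr genes, 8.51% were called higher and 8.73% lower. Their median difference was -0.999 points, below that of Vmn1r, and 39.7% had the higher level in TCKO. Vmn2r windows are longer and held a median of 1706 calls in WT, against 476 for Vmn1r and 906 for all genes, so a difference of the same size was called more readily in Vmn2r. In data simulated at the real depths, 100 of 51149 genes were changed by 10 points and another 100 by 20. Of those changed by 10 points, 65 were recovered. Many more genes were called in the real data, which makes the adjustment less strict. The recovered share therefore does not apply to the calls above.

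**Figure D1:**
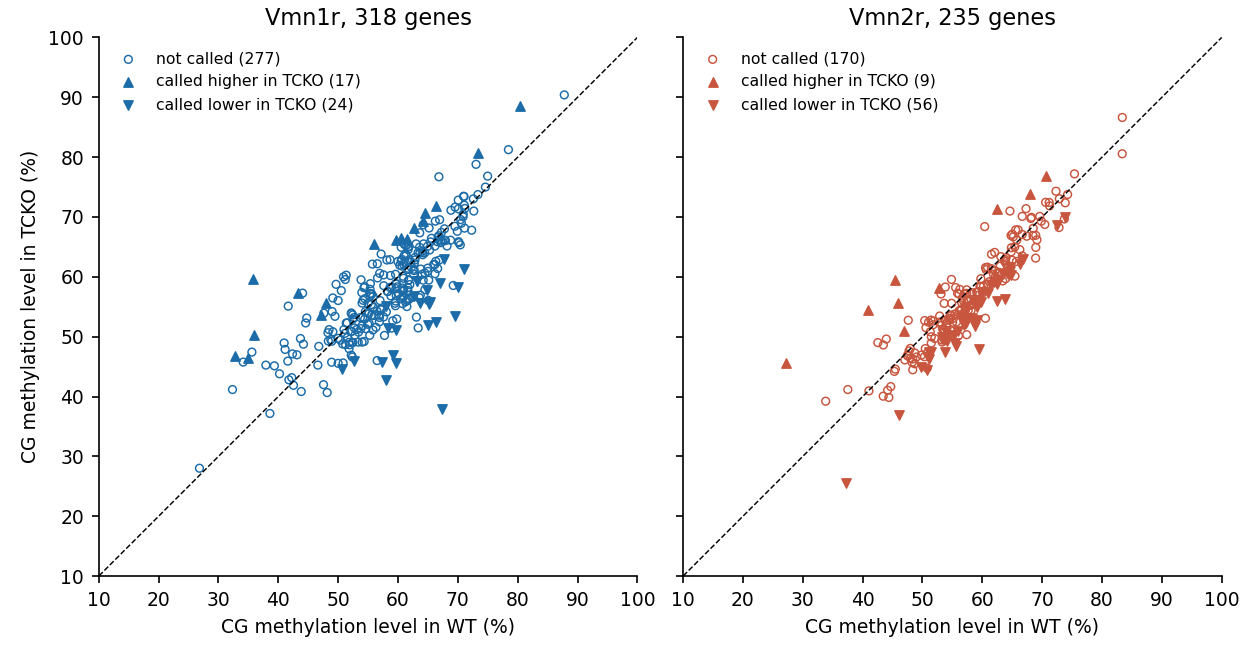
Each point is a gene window, with its CG methylation level in WT (x axis, %) and in TCKO (y axis, %); filled triangles are genes called by Fisher's exact test after adjustment over all autosomal genes, and the dashed line marks equal levels. Most points of both families lie at or under the line, with 24 Vmn1r and 56 Vmn2r genes called lower against 17 and 9 called higher.

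The differences were small for most members. Between -5 and 0 points lay 39.9% of Vmn1r genes and 65.1% of Vmn2r genes, beside 12.5% of all genes. A rise of 10 points or more in level was seen for 2.83% of Vmn1r and 1.28% of Vmn2r genes but for 18.5% of all genes. Other genes with a CG density within the 10th to 90th percentile of the members (2.88 to 6.83 per kb, 11259 genes without Olfr) had a median difference of 3.69 points. Those that also had a WT level within the same percentiles of the members (5637 genes) had a median of 2.14 points, so that genes of like density and like WT level still lay above the members by median. The 538 other genes inside the spans of the receptor clusters had a median difference of -0.450 points, with 52 called higher and 66 lower. The 116 protein-coding genes among them had a median of 0.442 points, with 23 called higher and 23 lower.

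**Figure D2:**
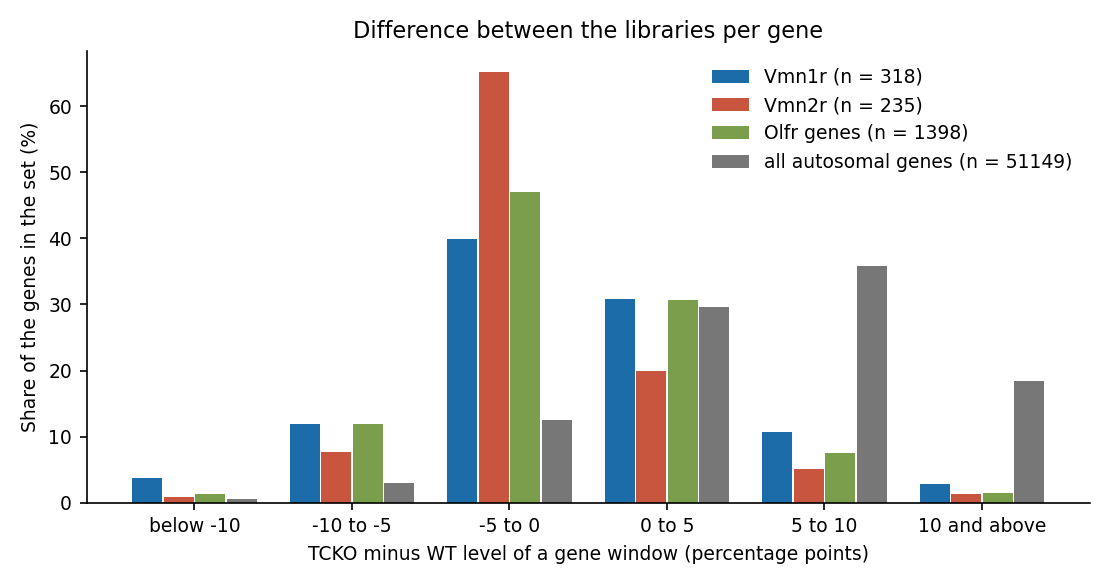
Bars give the share of genes (y axis, %) in each class of difference between the libraries, TCKO minus WT in percentage points (x axis), for 318 Vmn1r, 235 Vmn2r, 1398 Olfr and all 51149 autosomal genes. The receptor families peak between -5 and 0 points, and all autosomal genes peak between 5 and 10 points.

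Single cytosines showed the same partial methylation. Among cytosines with at least 10 calls in each library, 71.6% of 5259 in Vmn1r windows and 72.4% of 12803 in Vmn2r windows lay between 20% and 80% in WT, against 49.5% of 5567329 on all autosomes. In TCKO that middle share fell to 38.3% over the autosomes, while it was 69.6% in Vmn1r and 72.0% in Vmn2r windows. The share at 80% or above grew over the autosomes from 46.1% to 59.1%, and was 21.9% and 22.3% in Vmn1r and 20.7% and 19.6% in Vmn2r windows.

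The receptor genes had a shallow dip of methylation at their starts, if any. Over 202 protein-coding Vmn1r genes the level in 500 bp steps from 2 kb before to 2 kb after the start ran from 54.3% to 62.5% in WT and from 52.4% to 61.0% in TCKO. Over 121 protein-coding Vmn2r genes it ran from 52.2% to 62.2% in WT and from 49.98% to 60.9% in TCKO. Other protein-coding genes, whose starts often lie in unmethylated CpG islands, dropped to 19.1% in WT and 21.3% in TCKO in the first 500 bp. Within the genes, the coding exons of Vmn1r had 58.7% in WT and 56.3% in TCKO, and the introns 60.4% and 58.7%. In Vmn2r genes the last coding exon, which carries the membrane-spanning part of the receptor, had 58.7% and 58.3%, the earlier coding exons, most of which encode the extracellular part, 60.0% and 58.8%, and the introns 59.6% and 57.7%. Protein-coding Vmn1r genes and the other Vmn1r genes, mostly pseudogenes, differed from WT by -1.52 and -0.736 points, and protein-coding and other Vmn2r genes by -1.72 and -2.22 points.

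Depth has to be read beside these values, because some clusters were covered unequally in the libraries. Genes under 500 kb apart were joined into clusters, which gave 44, of which 18 held at least 5 members and together 510 genes. In 11 of the 44, with 154 members, the shares of covered cytosines differed by more than 5 percentage points. Among those of at least 5 members were a pair of Vmn2r clusters, on chromosome 13 from 65.4 Mb (76.4% covered in WT and 67.6% in TCKO) and on chromosome 17 from 22.5 Mb (76.1% and 86.7%, where 2.19% of CpGs had at least 10 calls in TCKO and none in WT), and 2 clusters of Vmn1r genes with many more members. The cluster chr7:20099680-24063554, with 70 Vmn1r members, had 57.5% of its CG cytosines covered in WT and 77.8% in TCKO, and 1.28 times as many calls in TCKO as in WT. In 62.0% of its cytosines the surrounding 100 bases had an exact second copy in the genome. In 100 kb steps along it, the ratio of TCKO to WT calls ran from 0.938 to 3.07 with a median of 1.59, and the 20 steps within 1 Mb on either side had a median of 0.930. Of its members, 28 exceeded the library ratio by more than 2 times, and the 8 genes under the minimum all lay there, with 3 to 27 calls in WT and 26 to 133 in TCKO. The members just above the minimum, Vmn1r112 and Vmn1r157, had 33 and 36 calls in WT and 109 and 274 in TCKO. CpGs with at least 10 calls in TCKO and none in WT made up 3.19% of the span of this cluster. Their share was 0.0641% over all autosomes and 0.757% in the chromosome 17 span from 17.7 Mb, whose cluster is not among the 11.

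The cluster chr6:56924015-58504737, with 44 Vmn1r members, stood apart the other way. In its member windows 89.5% of cytosines were covered in WT and 82.3% in TCKO, and the ratio of calls was 0.770. The low ratio held over the first 900 kb of the cluster (0.486 to 0.742 in 100 kb steps). It ended inside the cluster (0.854 from 900 to 1000 kb, and 0.857 to 0.912 beyond). Over the 3000 kb before the cluster the ratio was uneven. It was 0.627 to 0.827 from -3000 to -1500 kb, and 0.422 to 0.647 from -1500 kb to the first member, where the ratio over all autosomes was 0.855. In the same stretch were CpGs with at least 10 calls in each library that had at most 10% methylation in TCKO and at least 50% in WT: 136 of 2096 in the first 1000 kb and 325 of 7071 in the 3000 kb before, but 2 of 1828 in the rest of the cluster. Before the cluster, each 100 kb step held 0 to 10 such CpGs up to -1500 kb and 5 to 25 from there on. Over all autosomes such CpGs made up 0.0529%, and over the whole span of this cluster 3.57%, against 0 to 0.189% in the other spans of the 18. The first 1000 kb also held 345 CpGs with at least 10 calls in WT and none in TCKO, against 1 in the rest. Whether the sequence of the TCKO mice differs from the reference there was not tested, and neither was the part of depth in the levels.

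**Figure D3:**
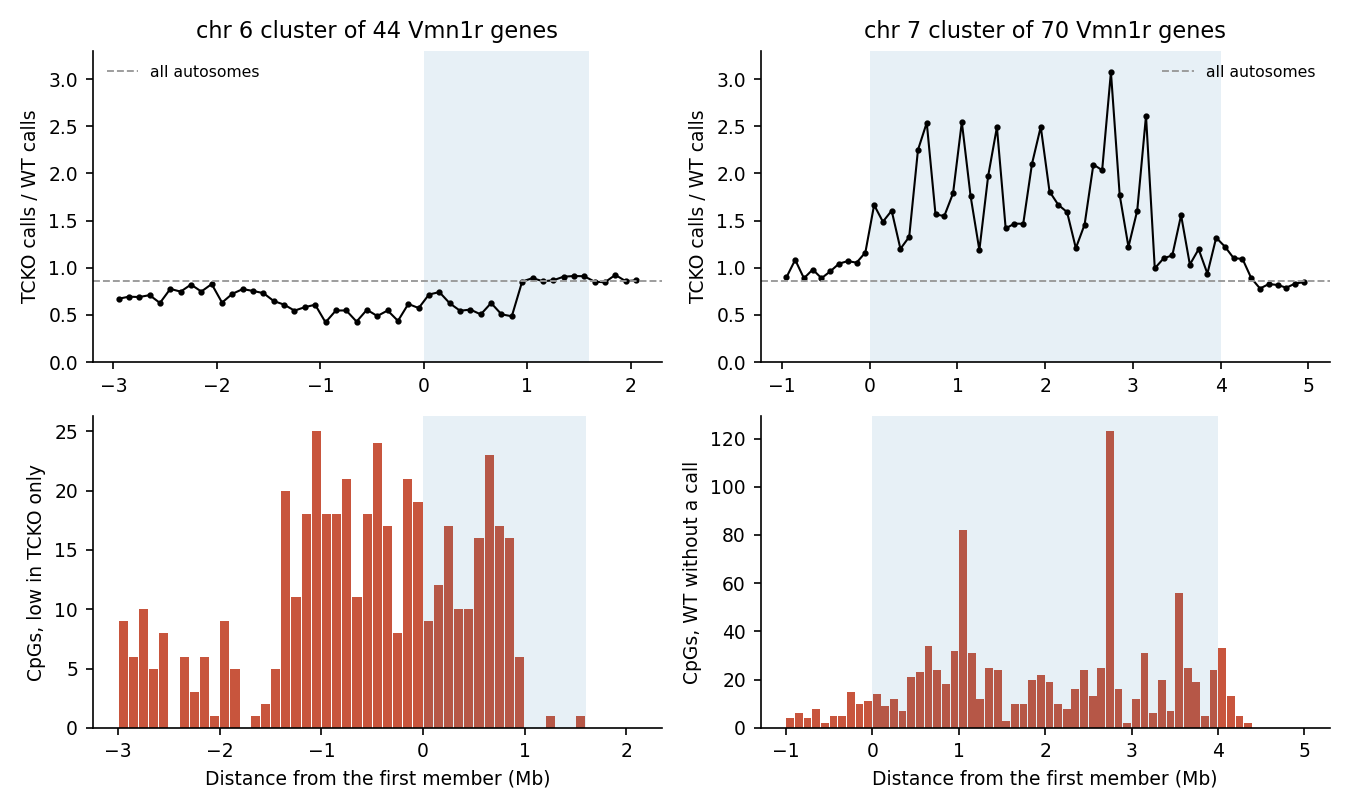
Upper panels give the ratio of TCKO to WT calls in 100 kb steps against the distance from the first member (x axis, Mb) for the 44-gene chromosome 6 cluster and the 70-gene chromosome 7 cluster, shaded, with the ratio over all autosomes dashed. Lower panels count CpGs that were at most 10% methylated in TCKO and at least 50% in WT (left), and CpGs with at least 10 calls in TCKO and none in WT (right); both are frequent in the stretches where the ratio departs from the dashed line.

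Without these 2 large clusters the Vmn1r difference was -1.04 points (204 genes). Of these genes 11 were called higher and 12 lower, close to equal numbers, against 17 and 24 with all clusters. Over all autosomal genes 57.7% were called higher and 2.30% lower. Without all 11 clusters of unequal coverage, the Vmn1r difference was -1.10 points (200 genes; 10 called higher and 12 lower) and the Vmn2r difference -2.04 points (199 genes; 5 called higher and 49 lower). Within the chromosome 6 cluster, the 24 members of the first 1000 kb had 64.6% in WT and 61.1% in TCKO, with 10 called lower and 1 higher, and the 20 members beyond had 63.3% and 62.6%, with none called by Fisher's exact test.

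The clusters differed in level and, to a lesser degree, in the size of the difference. In WT the pooled level ran from 49.9% in the 70-gene chromosome 7 cluster to 69.7% in the cluster of 5 Vmn2r genes on chromosome 14. Of the 18 clusters, 14 had the lower level in TCKO and 4 the higher, with a median of -2.16 points. The lowest was the cluster of 11 Vmn2r genes on chromosome 13 from 65.4 Mb (57.8% in WT and 53.5% in TCKO, -4.33 points), one of those of unequal coverage, which had 0.781 times the WT calls in TCKO. The largest Vmn2r clusters of chromosome 7, from 7.2 Mb with 30 genes and from 84.8 Mb with 34, had differences of -3.19 and -2.71 points, and 11 and 6 of their genes were called lower and none higher. The cluster of 36 Vmn2r and 24 Vmn1r genes on chromosome 17 from 17.7 Mb had 55.2% in WT and 53.5% in TCKO, with 3 genes called higher and 10 lower. Among the 18 clusters, the intervals of WT and TCKO overlapped in those on chromosomes 3 and 14, which had the higher level in TCKO. They also overlapped on chromosome 6 from 89.7 Mb, chromosome 13 from 22.1 Mb and chromosome 17 from 22.5 Mb, which had the lower.

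The clusters with the higher level in TCKO were few. The cluster of 9 Vmn1r genes on chromosome 6 from 66.6 Mb (Vmn1r32 to Vmn1r39 and Vmn1r-ps24) had 65.8% in WT and 69.9% in TCKO, 4.17 points, and each of its 9 genes had the higher level in TCKO, 5 of them called. Over its whole span, other sequence included, the rise was 1.53 points, under the 1.91 points of the span of the 70-gene chromosome 7 cluster, so its size held over the member windows alone. Its depth ratio was 0.916, and 95.3% of its cytosines were covered in TCKO. The 70-gene chromosome 7 cluster of unequal depth had 49.9% and 52.0%, the 18 Vmn2r genes on chromosome 3 from 64.1 Mb had 68.4% and 68.9%, and the chromosome 14 cluster had 69.7% and 69.95%. The cluster of 70 Vmn1r genes on chromosome 13 from 22.1 Mb, the same in number as the chromosome 7 cluster but covered evenly (0.863), had 63.6% and 63.3%, with 33 of its genes higher in level and 37 lower.

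**Figure D4:**
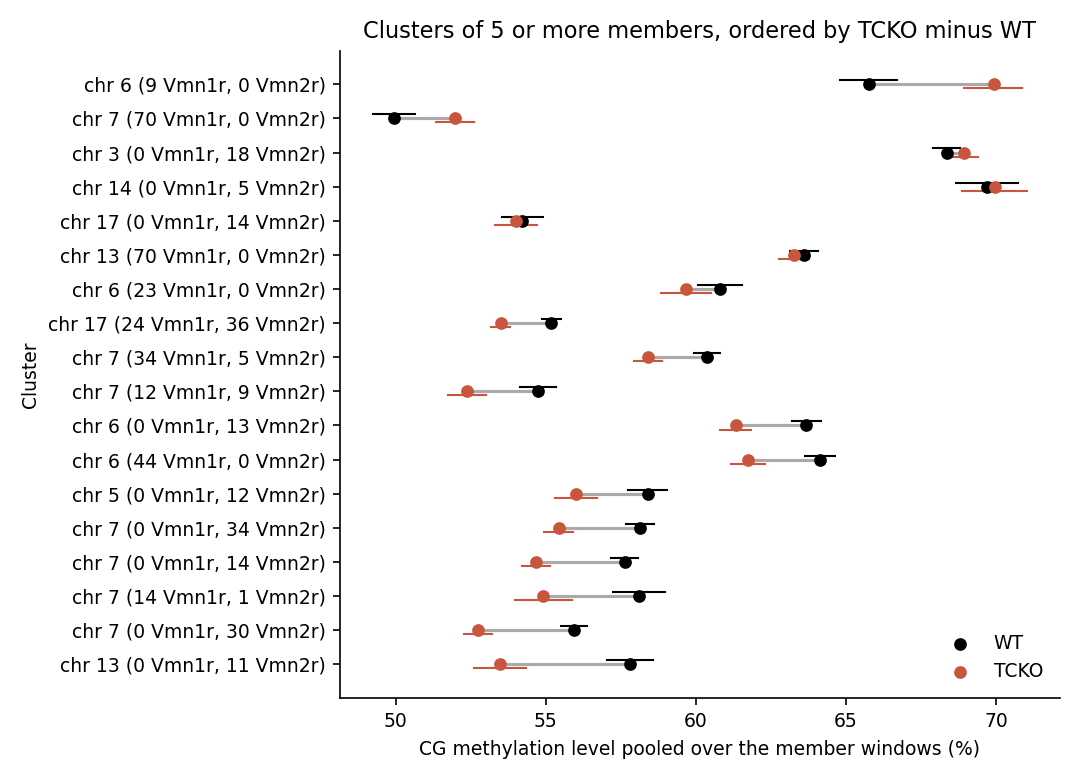
Each row is a cluster of at least 5 members, labelled by chromosome and by its numbers of Vmn1r and Vmn2r genes; black and red points give the CG methylation level pooled over the member windows (x axis, %) in WT and TCKO, with thin lines for the 95% Wilson intervals. In 14 of the 18 rows the TCKO point lies to the left of the WT point, and the 9-gene chromosome 6 cluster at the top has the largest shift to the right.

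Outside the clusters the same chromosomes had higher levels in TCKO. Over the 44 cluster spans, 27.7 Mb in all, the level was 61.9% in WT and 60.2% in TCKO (-1.65 points; -1.51 without the 2 large Vmn1r clusters of unequal depth), and over the rest of the autosomes it was 70.5% and 76.8% (6.31 points). On chromosome 7, whose 11 clusters span 13.1 Mb, the difference was -1.80 points inside and 4.99 outside. On chromosome 6 it was -2.45 inside, or -1.30 without the cluster of unequal depth, and 6.15 outside. On chromosome 13 it was -2.68 and 6.05, and on chromosome 17 -0.485 and 5.95. Taking 100 kb steps across the edges of the 18 clusters, the difference was -1.02 points in the last 100 kb inside, 1.18 in the first 100 kb outside, 2.73 in the next, 3.84 from 200 to 300 kb and 4.79 from 900 to 1000 kb. At the last distance 27 of 32 windows had the higher level in TCKO, against 11 of 34 just inside. Pooled over clusters, the direction changed within 100 kb of the outermost receptor gene, and the difference was still under the autosomal value 1000 kb away. Without the 2 large Vmn1r clusters these values were -1.05, 1.22, 2.49, 4.01 and 4.86 points.

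**Figure D5:**
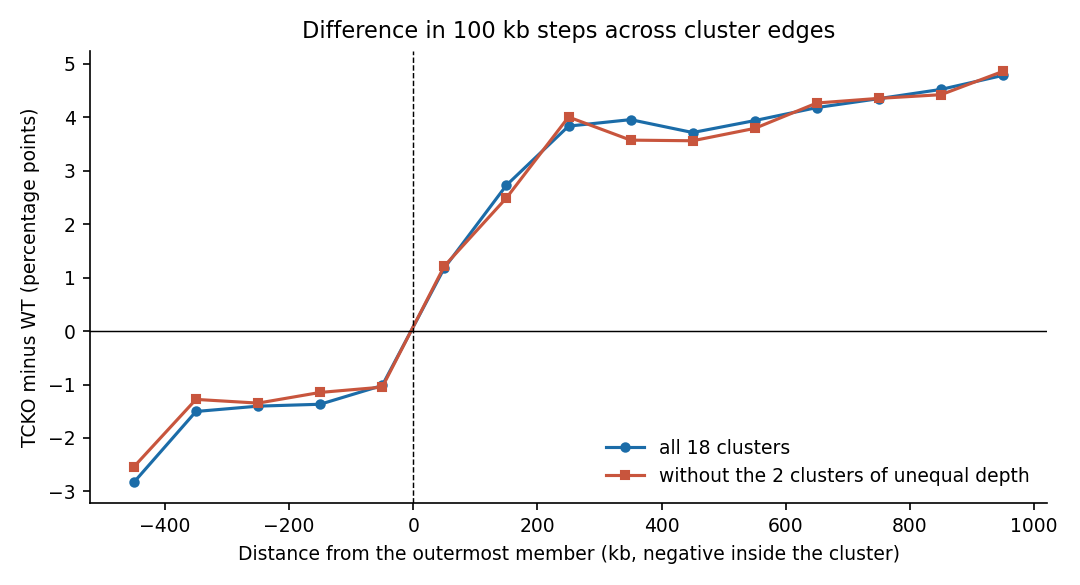
The y axis gives TCKO minus WT (percentage points) pooled over 100 kb steps at each distance from the outermost member of a cluster (x axis, kb; negative inside), for the 18 clusters of at least 5 members and for those left without the 2 large Vmn1r clusters of unequal depth. Both lines pass from negative to positive at the edge, from -1.02 to 1.18 points for all clusters.

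Single genes departed from their families in both directions. Among Vmn1r genes with at least 100 calls in each library, the largest called falls were of Vmn1r15 (69.6% of 542 calls in WT and 53.5% of 275 in TCKO; Fisher's exact test, adjusted p = 2.1e-05), Vmn1r151 (58.0% and 42.7%), Vmn1r90 (59.7% and 45.7%) and Vmn1r10 (66.3% and 52.5%). Vmn1r15 and Vmn1r10 lie in the first 1000 kb of the chromosome 6 cluster and Vmn1r151 in the chromosome 7 cluster of unequal depth. Vmn1r90 (chr7:14555474-14563506), a receptor gene of an evenly covered region with 534 calls in WT and 508 in TCKO, showed the largest called fall outside those clusters (-14.1 points; intervals 55.5 to 63.8% and 41.4 to 50.02%; adjusted p = 1.7e-05, Fisher's exact test).

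The largest called rises were of Vmn1r143 (35.9% and 50.2%), Vmn1r95 (32.8% and 46.8%) and Vmn1r172 (35.0% and 46.5%), all in the chromosome 7 cluster of unequal depth, and of Vmn1r210 (chr13:22825875-22831348), with 43.2% of 444 calls in WT and 57.3% of 351 in TCKO (adjusted p = 0.00028, Fisher's exact test). Every cytosine of Vmn1r143 and Vmn1r95 had an exact second copy of its surroundings, against 3.03% of those of Vmn1r210. Below 100 calls, the difference reached -29.4 points for the pseudogene Vmn1r-ps11 (337 and 87 calls, chromosome 6 cluster) and 23.8 points for Vmn1r115 (53 and 151 calls, chromosome 7 cluster).

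Among Vmn2r genes, the largest called rises were of Vmn2r-ps125 (27.1% of 188 calls in WT and 45.7% of 324 in TCKO; adjusted p = 9.0e-05, Fisher's exact test), Vmn2r-ps17 (45.4% and 59.4%), Vmn2r-ps118 (40.8% and 54.4%) and Vmn2r106 (45.8% of 1108 calls and 55.6% of 1386; adjusted p = 4.2e-06, Fisher's exact test). Apart from Vmn2r-ps17, which lies on chromosome 4, these are genes of the chromosome 17 cluster from 17.7 Mb, and each had more calls in TCKO than in WT although the library had fewer. Vmn2r-ps17 lies in a cluster of unequal coverage, and 61.5% of its cytosines were covered in WT and 42.6% in TCKO. The largest called falls were of the pseudogenes Vmn2r-ps122 (37.2% and 25.6%), Vmn2r-ps58 (59.5% and 48.0%), Vmn2r-ps41 (46.0% and 37.0%) and Vmn2r-ps31 (63.7% and 56.3%). The 32 of 121 protein-coding Vmn2r genes that were called lower had smaller differences, from -6.61 points in Vmn2r23 to -2.42 in Vmn2r60.

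Receptors of known ligand or expression differed among themselves in size and direction. Vmn2r116, the receptor of the peptide pheromone ESP1, had 50.8% of 1706 calls methylated in WT and 47.3% of 1564 in TCKO, which did not pass the test (Fisher's exact test, adjusted p = 0.074). Vmn2r26 fell from 66.2% of 3311 calls to 62.1% of 3003 (adjusted p = 0.0017, Fisher's exact test). Vmn2r1 rose from 70.7% of 2524 calls to 76.8% of 2148 (adjusted p = 8.4e-06, Fisher's exact test), while its neighbour Vmn2r2, of the same subfamily, had 68.1% and 69.8% and was not called. The Vmn1r genes Vmn1r49 (48.2% and 40.7%), Vmn1r85 (60.8% and 57.6%) and Vmn1r89 (62.8% in each library) were not called. The genes with the most calls, Vmn1r68 (55.9% and 54.9%) and Vmn1r88 (72.7% and 70.99%), Vmn2r7 (68.5% and 68.1% of 14682 and 12725 calls) and Vmn2r60 (57.3% and 54.9%), had differences between -2.42 and -0.388 points, and of these Vmn2r60 alone was called, as lower.

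The ends of the range in WT were mostly pseudogenes by name, apart from the low end of Vmn1r. Genes that are not protein-coding held fewer calls in WT than protein-coding ones. The medians were 339.5 against 758.5 in Vmn1r and 708.5 against 2396 in Vmn2r. The part of counting error in these ranks was not tested. The highest Vmn1r levels were of Vmn1r-ps145 (87.8% in WT and 90.4% in TCKO), Vmn1r-ps136 (80.4% and 88.6%, called higher) and Vmn1r-ps66 (78.4% and 81.2%), and the highest Vmn2r levels of Vmn2r-ps88 (83.4% and 86.6%), Vmn2r-ps3 (83.4% and 80.6%) and Vmn2r-ps62 (75.4% and 77.2%). The lowest were of Vmn1r175 (26.8% and 28.0%), with Vmn1r95 and Vmn1r172 named above next, and of Vmn2r-ps125, Vmn2r-ps121 (33.8% and 39.2%) and Vmn2r-ps122.

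Other genes of the vomeronasal organ were set beside the receptors from a list of 27. Over the whole list 15 genes were called higher in TCKO and 1 lower, where 57.7% and 2.30% of all genes were. The median difference of the list was 5.64 points, beside 5.57 over all genes. The 13 genes for signalling, transcription and adhesion were all called higher in TCKO, with a median of 7.69 points. Among protein-coding genes outside the 2 receptor families 70.6% were called higher. Among them the channel gene Trpc2 rose from 80.7% to 86.5%, Gnai2 from 43.5% to 57.6%, Gnao1 from 72.9% to 80.2%, the olfactory marker gene Omp from 64.3% to 80.8%, and Bcl11b, a transcription factor gene of the basal neurons, from 59.3% to 76.5%. The 14 genes of the Fpr and H2-M families, which encode formyl peptide receptors and class I molecules of the organ and lie in gene arrays of chromosome 17, had a median of -0.483 points. Of these, Fpr-rs6 (33.0% and 51.9%) and H2-M10.1 (56.4% and 65.4%) were called higher and H2-M1 (61.5% and 53.3%) lower by Fisher's exact test. The listed Fpr genes lie inside the span of the receptor cluster of chromosome 17 from 17.7 Mb, and the H2-M genes outside it. Fpr-rs6 had 233 calls in WT and 312 in TCKO, although the TCKO library had fewer calls.

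Few short regions in the receptor windows met a rule modelled on that of the study for CG-DMRs, applied here to single 200 bp bins that held 4 or more CG cytosines over both strands, read 4 or more times on average in WT and in TCKO. Counting cytosines of both strands, the minimum of reads, the adjustment of p and leaving neighbouring bins unjoined are choices made here. Of 43270 bins in the windows, 9170 held that many CG cytosines and 5707 were testable. Hyper bins, with an adjusted p below 0.05 in Fisher's exact test and a difference above 40 points, numbered 14 (0.245%), and hypo bins 15 (0.263%), where 2.86% of all 2534629 testable bins were hyper and 0.0350% hypo. All 8 hypo bins of Vmn1r genes lay in the first 1000 kb of the chromosome 6 cluster, by Vmn1r4, Vmn1r5, Vmn1r9, Vmn1r11, Vmn1r12, Vmn1r13, Vmn1r16 and Vmn1r17. Without the 2 large Vmn1r clusters of unequal depth, 13 hyper and 7 hypo bins were left. The median difference over the testable bins was -0.847 points in Vmn1r and -1.88 in Vmn2r windows, against 4.71 over all testable bins.

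The 3 hyper bins with the largest rise and the 3 hypo bins with the largest fall are printed on the plus strand, because they show how few CGs carry each call; capitals mark each CG.
Vmn2r97 hyper bin: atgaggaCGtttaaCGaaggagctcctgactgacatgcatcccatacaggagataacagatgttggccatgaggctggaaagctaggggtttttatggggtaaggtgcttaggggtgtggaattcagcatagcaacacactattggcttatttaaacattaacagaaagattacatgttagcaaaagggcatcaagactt
Vmn2r7 hyper bin: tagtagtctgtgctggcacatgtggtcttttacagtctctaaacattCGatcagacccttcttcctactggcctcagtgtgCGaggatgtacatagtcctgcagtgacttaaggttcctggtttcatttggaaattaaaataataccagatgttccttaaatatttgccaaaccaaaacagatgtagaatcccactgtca
Vmn1r199 hyper bin: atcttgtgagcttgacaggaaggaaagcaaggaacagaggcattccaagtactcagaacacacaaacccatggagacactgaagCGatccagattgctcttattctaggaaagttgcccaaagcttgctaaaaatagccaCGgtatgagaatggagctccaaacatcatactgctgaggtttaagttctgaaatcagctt
Vmn1r13 hypo bin: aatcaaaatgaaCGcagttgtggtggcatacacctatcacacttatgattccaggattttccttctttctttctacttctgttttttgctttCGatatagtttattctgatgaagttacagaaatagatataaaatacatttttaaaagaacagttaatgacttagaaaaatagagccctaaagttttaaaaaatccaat
Vmn1r9 hypo bin: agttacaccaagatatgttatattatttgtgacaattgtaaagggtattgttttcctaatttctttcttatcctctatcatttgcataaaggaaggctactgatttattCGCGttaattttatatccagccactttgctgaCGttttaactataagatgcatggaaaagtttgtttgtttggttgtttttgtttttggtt
Vmn1r11 hypo bin: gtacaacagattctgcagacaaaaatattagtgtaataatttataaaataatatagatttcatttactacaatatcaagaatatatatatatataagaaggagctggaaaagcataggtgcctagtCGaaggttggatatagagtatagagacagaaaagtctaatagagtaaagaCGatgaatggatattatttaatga

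The Vmn2r97 bin (chr17:18955801-18956000) overlaps an exon and rose from 3 of 16 methylated calls (18.8%) to 15 of 17 (88.2%). The Vmn2r7 bin (chr3:64720401-64720600) rose from 4 of 27 calls (14.8%) to 20 of 24 (83.3%), and the Vmn1r199 bin (chr13:22381201-22381400, intronic) from 2 of 20 to 14 of 18 (77.8%). The Vmn2r7 bin is intronic in the GENCODE gene, which starts at chr3:64844765 on the minus strand. It lies upstream of the RefSeq start printed above. In all 3 of these bins both CGs were higher in TCKO. The Vmn1r13 bin (chr6:57204601-57204800, intronic) fell from 77 of 84 calls (91.7%; interval 83.8 to 95.9%) to 1 of 60 (1.67%; 0.295 to 8.86%). The Vmn1r9 bin (chr6:57065801-57066000), 787 bp upstream of the gene, fell from 66 of 91 calls (72.5%; 62.6 to 80.6%) to 0 of 50 (up to 7.13%), with 0 methylated calls in TCKO at each of its 3 CGs. The Vmn1r11 bin (chr6:57133801-57134000, intronic) fell from 30 of 39 calls (76.9%) to 3 of 33 (9.09%), its second CG having 16 of 22 methylated calls in WT and 0 of 21 in TCKO. All 3 lie in the stretch of chromosome 6 where CpGs low in TCKO alone and a low depth ratio coincide; their part in these calls was not tested.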

How the data were processed

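Genomic DNA of primary osteoblasts was sequenced by WGBS with 1 library per genotype. The authors aligned reads to GRCm38 with BSMAP 2.74 (CASAVA is also named in the submitters' processing notes), used unique hits, and the authors deposited counts of methylated calls and of all calls for each CG cytosine on each strand, not normalized; removal of duplicate reads is not given in the sources used here. 5mC and 5hmC are both read as methylated. All positions fell on a CG of the reference (0 did not).

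Calls were summed over gene windows (GENCODE M21, 2 kb flanks, 30 calls in each library) and tested with the 2-sided Fisher's exact test, with Benjamini-Hochberg adjustment over 51149 autosomal genes and a threshold of 0.05. Bins of 200 bp were tested the same way over 2534629 testable bins. Families and clusters were compared without a test. Reference copies are exact matches of the 100 bases around a CpG. The members and lists were chosen with earlier results of these data known. Named genes, with 100 calls in each library, were per family the 4 largest called rises and falls, the 3 highest and 3 lowest WT levels and the 2 with the most WT calls, plus 7 receptors of known ligand or expression; bins were the 3 largest called rises and falls. The test was tested on simulated data: of 100 genes changed by 20 points, 98 were recovered, and of 200 bins of chromosome 19 changed by 55 points, 165. The changed share was far smaller than the share called in the real data, so these shares do not give the sensitivity of the real calls. Alternatives changed the window, depth limits, gene classes, weighting, strand, clusters and thresholds. Versions were SciPy 1.17.1, NumPy 2.4.6 and numba 0.67.0 under Python 3.11.15.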

Additional observations from a re-analysis of the deposited data

How the results depend on the processing

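The pooled differences stayed negative under every alternative run, from -1.61 to -1.04 points for Vmn1r and from -2.08 to -1.60 for Vmn2r. Values outside the counting interval of the reported difference were -1.04 for Vmn1r without the 2 large clusters of unequal depth (chosen after seeing the data), and for Vmn2r -1.60 when levels of single cytosines of 4 or more calls were averaged and -2.08 on minus-strand cytosines alone. The intervals of -1.04 and -2.08 themselves hold the reported differences, so neither is shown to differ from them, and -1.60 has no interval. Gene bodies without flanks gave 10 Vmn1r and 5 Vmn2r genes called higher. Without cytosines of more than 20 calls, 32 Vmn2r genes were called lower, and among protein-coding genes alone 4 Vmn2r genes were higher and 32 lower. Without the 2 large clusters, 11 Vmn1r genes were called higher and 12 lower; without all 11 clusters of unequal coverage (also chosen after seeing the data), 10 and 12, with 5 Vmn2r genes higher. A difference of at least 10 points left 5 Vmn1r genes higher and 9 lower, and 3 Vmn2r genes higher and 2 lower. A mean of at least 1 read per cytosine gave 25 hyper bins, a mean of at least 10 gave 3 hyper and 3 hypo, a difference above 20 points gave 38 and 35, and 7 hypo bins were left without the 2 large clusters and also without all 11. Clusters joined at 200 kb or 1 Mb, or taken as whole spans, had the lower level in TCKO in 17 of 23, 13 of 18 and 13 of 18. Choosing among the same calls (protein-coding genes alone, a larger difference per gene, clusters left out) can only lower a count; for the other settings the cause was not tested. No paired analysis was possible because there is 1 library per genotype.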

Other observations

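Genes with reference copies were described apart. The 61 Vmn1r genes in which 50% or more of the cytosines had an exact copy had a median level of 52.4% in WT and 53.4% in TCKO, with a median difference of 0.557 points, and the median share of cytosines covered was 57.1% in WT and 79.2% in TCKO. The 127 Vmn1r genes without a copied cytosine had a median difference of -0.914 points. The 54 Vmn2r genes with as many copies had a median of -2.59 points, with 17 called lower and 1 higher by Fisher's exact test, and the 48 without a copied cytosine a median of -1.20 points, with 5 lower and 2 higher.

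Some receptor genes away from the large clusters had higher levels in TCKO. Vmn1r1, the one member of its family on chromosome 1, had 73.3% in WT and 80.7% in TCKO, and was called higher. A bin by Vmn2r18 on chromosome 5 had 0 of 33 methylated calls in WT and 25 of 58 in TCKO (43.1%). These were chosen after their values were seen. Both lie in clusters counted among those of unequal coverage. That of Vmn1r1 had 97.7% of cytosines covered in WT and 91.1% in TCKO, and that of Vmn2r18 56.7% and 65.4%. The cluster spans of chromosome 17 also held CpGs with 10 or more calls in TCKO and no call in WT. There were 140 in the span from 17.7 Mb (0.757%) and 115 in that from 22.5 Mb (2.19%), against 0.0641% over all autosomes. The cluster from 17.7 Mb, with 87.1% of cytosines covered in WT and 90.6% in TCKO, is not among the 11 of unequal coverage.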
